A study of Brassica napus with 11 samples.

Results

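The 5 transcripts described here stand for phloem identity and phloem signals in the funiculus of *Brassica napus*: one *ALTERED PHLOEM DEVELOPMENT* (*APL*) transcript (BnaA07g34920D), one *CLE25* transcript (BnaA02g29310D), a pair of *CLE26* transcripts (BnaA02g14720D and BnaCnng22520D) and one *PHLOEM PROTEIN 2-A1* (*PP2-A1*) transcript (BnaA01g34970D). They were taken by identifier, as 5 of the 97902 transcripts in the deposited table, each named after its best Arabidopsis match. The funiculus is the stalk that ties the seed to the mother plant. Vasculature (3 libraries), cortex (2 libraries) and epidermis (3 libraries) were cut from it by laser microdissection, and the whole funiculus gave 3 more libraries. All came from one background, cv. Topaz line DH4079, untreated and at 7 days after pollination, when the embryo is globular. Each replicate joined fragments from several plants, the RNA was amplified before sequencing, and levels are in FPKM, fragment numbers corrected for the length of the transcript and the size of the library.

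Phloem carries sugars, RNA and peptides through sieve elements, living cells that lose their nucleus and are kept alive by companion cells. In Arabidopsis the MYB-type transcription factor APL is needed for phloem identity, and CLE peptides are short secreted ligands read by leucine-rich repeat receptor kinases, several of which act on the development of protophloem. PP2-A1 is a lectin made in companion cells that enters the sieve elements. The vascular strand of the funiculus is the path by which the seed receives its assimilates.

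The vasculature libraries carried their own markers and little of those of the outer tissues. The summed level of 6 epidermis markers was 1.12 to 16.6 FPKM in the vasculature, against 1943 to 3689 FPKM in the epidermis. The summed level of 7 cortex markers was 71.7 to 160.5 FPKM in the vasculature, against 2609 and 3132 FPKM in the cortex. Most of the 14 xylem markers were listed at 0 outside the vasculature, 12 of them in every epidermis library and 11 and 9 in cortex 1 and 2. All cortex and xylem markers are on tissue lists that the study picked from these libraries. So are the epidermis markers apart from *MYB106* and *MYB16* BnaA02g02580D. Low levels outside the tissue of a marker were thus largely set by that choice and are no independent check of the dissection. Relative to whole funiculus 3, the libraries held 0.34 to 1 times as many fragments, apart from whole funiculus 2 with 0.186, which the study dropped because it grouped with no other library and which is given here by its own values only. Study records list the RNA of the vasculature as less intact than that of the outer tissues, so RNA quality and tissue cannot be told apart in contrasts with the vasculature. A lower level in a tissue can stem from fewer cells of a type or from less RNA per cell, and bulk libraries cannot tell these apart.

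All 5 transcripts were higher in the vasculature than in the epidermis and the cortex. With limma on log2(FPKM + 1) and Benjamini-Hochberg adjustment over 45300 transcripts, 5 of 5 were called higher against the epidermis, where 9.18% of all tested transcripts were. Against the cortex it was again 5 of 5, where 5.73% of all tested were called higher. These contrasts share the vasculature libraries, and all 5 transcripts are on the list of vasculature transcripts that the study picked from these libraries, so the counts are not independent evidence of the direction. Enrichment by the rule of the study, 5-fold over each of the other tissues by mean level with a limma p under 0.005 and an adjusted p under 0.05, was met by 5 of 5, against 4.31% of all tested. The study applied its thresholds with CuffDiff and named fewer vasculature transcripts, so the 1952 that passed here are not its list. Any level above 0 meets the fold criterion against a tissue listed at 0, as for the 3 CLE transcripts. The pooled vasculature level of *CLE25* was 1.69 times the level that 3 fragments would give over the epidermis, and 1.58 times that over the cortex. For *CLE26* BnaCnng22520D it was 4.63 and 4.35 times, so 5-fold is not shown for these. Such folds take the vasculature level as estimated, without its own counting error, and are not lower bounds. In each of the 5, every vasculature library lay above every epidermis and cortex library, which was so for 13.2% of all tested transcripts.

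**Figure D1:**
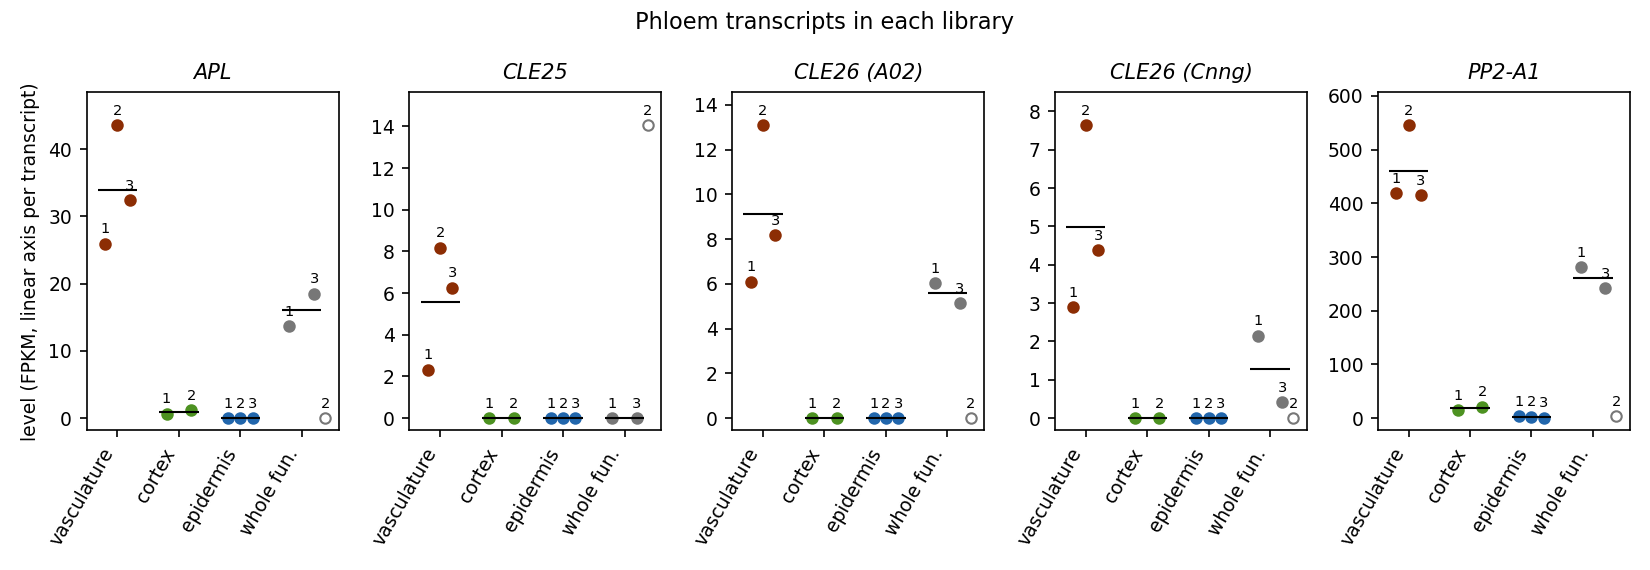
Level in FPKM (linear axis, one scale per transcript) of the 5 phloem transcripts in each library of vasculature, cortex, epidermis and whole funiculus, with the replicate number at each point and a bar at the group mean; the open point is whole funiculus 2, which is not in the mean. Vasculature 2 is the highest of the vasculature libraries in every panel, and cortex and epidermis lie at or near 0 at these scales.

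*APL* was at 25.9, 43.6 and 32.4 FPKM in vasculature 1, 2 and 3, against 0.675 and 1.20 FPKM in cortex 1 and 2. It was listed at 0 in all 3 epidermis libraries and stood at 13.7 and 18.5 FPKM in whole funiculus 1 and 3. The regulator was thus abundant in each vasculature library, at trace level in both cortex libraries and without a listed value above 0 in the epidermis. Its vasculature mean of 34.0 ± 8.94 FPKM (SD, n = 3) was 36.2 times the cortex mean of 0.938 ± 0.372 FPKM (SD, n = 2), and ranked 2207 among the 38227 transcripts with a vasculature mean of at least 1 FPKM.

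The difference in *APL* was 5.10 ± 0.29 against the epidermis (limma adjusted p = 2.27e-05) and 4.16 ± 0.32 against the cortex (limma adjusted p = 0.000357), in log2(FPKM + 1) ± SE. The added 1 FPKM makes such values smaller than the log2 fold change where a level is low. Between the cortex and the epidermis *APL* differed by 0.94 ± 0.32, short of the threshold (limma adjusted p = 0.316). Both cortex libraries were above 0, while every epidermis library was listed at 0.

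The order for *APL* was vasculature, whole funiculus, cortex, epidermis. Neighbours did not all differ beyond their spread: the vasculature exceeded the whole funiculus by 1.01 ± 0.31 in log2(FPKM + 1), which did not pass (limma adjusted p = 0.186), with no overlap between the libraries. Whole funiculus and cortex did not overlap and were not tested against each other.

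Where whole fragments were counted, the FPKM values of a transcript are whole multiples of what 1 fragment is worth in a library. Among 23278 sparse transcripts 65.7% were whole within 0.05 fragments in every library when their lowest value was taken as 1 or 2 fragments, so this does not hold in that form for the whole table. For each of the 5 transcripts a step could be found at which every value above 0 was whole to within 0.00147 fragments. *APL* rested on 115, 165 and 214 fragments in vasculature 1, 2 and 3, against 2 and 7 in cortex 1 and 2. These are the smallest whole numbers that fit, and whole multiples of them would fit as well and would lower the floors given here. In single epidermis libraries 3 fragments would have been worth 0.773 to 1.12 FPKM, close to the cortex mean of 0.938 FPKM. Over the 3 epidermis libraries together 3 fragments are worth 0.320 FPKM, and the pooled vasculature level of 33.3 FPKM was 104 times that. These floors and all intervals below cover counting error only, as amplified reads are not independent molecules, and an exact 0 can also be a failed estimate: 52 of 1325 transcripts averaging at least 50 FPKM in the vasculature were listed at 0 in at least 1 vasculature library.

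The ligand *CLE25*, which in Arabidopsis is expressed in phloem and also travels from root to shoot under drought, rested on the fewest fragments of the 5. It was at 2.33, 8.19 and 6.25 FPKM in vasculature 1, 2 and 3, and listed at 0 in both cortex libraries, in all 3 epidermis libraries and in whole funiculus 1 and 3. Presence in each vasculature library and nowhere else among these 10 libraries is the pattern in the values, but it rests on 1, 3 and 4 fragments. Pooled over the vasculature, 8 fragments gave 5.57 FPKM (95% Poisson interval 2.41 to 10.98).

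The zeros of *CLE25* have to be read against depth. In single libraries 3 fragments of it are worth 5.32 and 10.5 FPKM in the cortex and 7.98 to 11.6 FPKM in the epidermis, and 4 of these 5 floors lie above its vasculature mean of 5.59 FPKM. A level like that of the vasculature would thus give fewer than 3 fragments in 4 of the 5 outer libraries taken alone. The floor is a chosen cutoff and not a limit of detection. In vasculature 1, where 3 fragments are worth 6.99 FPKM, *CLE25* was listed at 2.33 FPKM on 1 fragment. Over all 5 outer libraries together 3 fragments are worth 1.71 FPKM. The pooled vasculature level was 3.27 times that, and the lower end of its interval, 2.41 FPKM, also lay above it. Over the epidermis or the cortex alone 3 fragments are worth 3.31 and 3.53 FPKM, both above that lower end.

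The fitted difference in *CLE25* was 2.60 ± 0.40 against the epidermis (limma adjusted p = 0.00256) and 2.60 ± 0.45 against the cortex (limma adjusted p = 0.00755), in log2(FPKM + 1) ± SE. The call against the cortex was lost without cortex 1 (limma adjusted p = 0.0550) and without cortex 2 (limma adjusted p = 0.0543), when a lone cortex library is assumed to vary like the other groups. Levels at 0 in every outer library show no spread, so the error in these fits comes from the vasculature and from the variance that limma shares among transcripts. The fit pools 1 variance over the groups, so the zeros pull it below the spread of the vasculature libraries. For all 3 CLE transcripts the SE and adjusted p against the outer tissues may therefore be too small.

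*CLE26* encodes a peptide that alters protophloem formation in Arabidopsis roots, and 2 transcripts of *B. napus* carried this name. BnaA02g14720D was at 6.09, 13.1 and 8.18 FPKM in vasculature 1, 2 and 3 and listed at 0 in both cortex and all 3 epidermis libraries. In whole funiculus 1 and 3 it was at 6.02 and 5.14 FPKM. By listed level the outer tissues were apart from the vasculature in every library, while whole funiculus 1 lay just below vasculature 1. The counting intervals of vasculature 1 and 3 still overlapped some of those of the outer libraries.

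BnaA02g14720D rested on 6, 11 and 12 fragments in vasculature 1, 2 and 3. Its pooled vasculature level of 8.81 FPKM (95% Poisson interval 5.90 to 12.7) was 11.8 times the level of 3 fragments over the 5 outer libraries. The difference was 3.28 ± 0.32 against the epidermis (limma adjusted p = 0.000232) and 3.28 ± 0.36 against the cortex (limma adjusted p = 0.00102). Against whole funiculus 1 and 3 it was 0.56 ± 0.33, which did not pass (limma adjusted p = 0.537). Its order was vasculature, whole funiculus, then cortex and epidermis both at 0.

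BnaCnng22520D had the same tissue pattern at a lower level, with 2.90, 7.64 and 4.38 FPKM in vasculature 1, 2 and 3 and listed zeros in all cortex and epidermis libraries. In whole funiculus 1 and 3 it was at 2.15 and 0.408 FPKM, below each vasculature library. It rested on 4, 9 and 9 fragments in the vasculature and on 4 and 1 in whole funiculus 1 and 3. The pooled vasculature level of 4.77 FPKM (95% Poisson interval 2.99 to 7.22) was 8.98 times the level of 3 fragments over the outer libraries.

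The difference in BnaCnng22520D was 2.50 ± 0.35 against the epidermis (limma adjusted p = 0.00154) and 2.50 ± 0.39 against the cortex (limma adjusted p = 0.00484). It exceeded the whole funiculus by 1.43 ± 0.44, which did not pass (limma adjusted p = 0.192). Of both *CLE26* transcripts, BnaA02g14720D was the higher in every library where BnaCnng22520D was above 0. The ratio of BnaA02g14720D to BnaCnng22520D was 2.10, 1.71 and 1.87 in vasculature 1, 2 and 3, and 2.80 in whole funiculus 1. It was 12.6 in whole funiculus 3, where a single fragment lies behind BnaCnng22520D. Near-identical copies can share reads, so the split between them is uncertain.

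**Figure D2:**
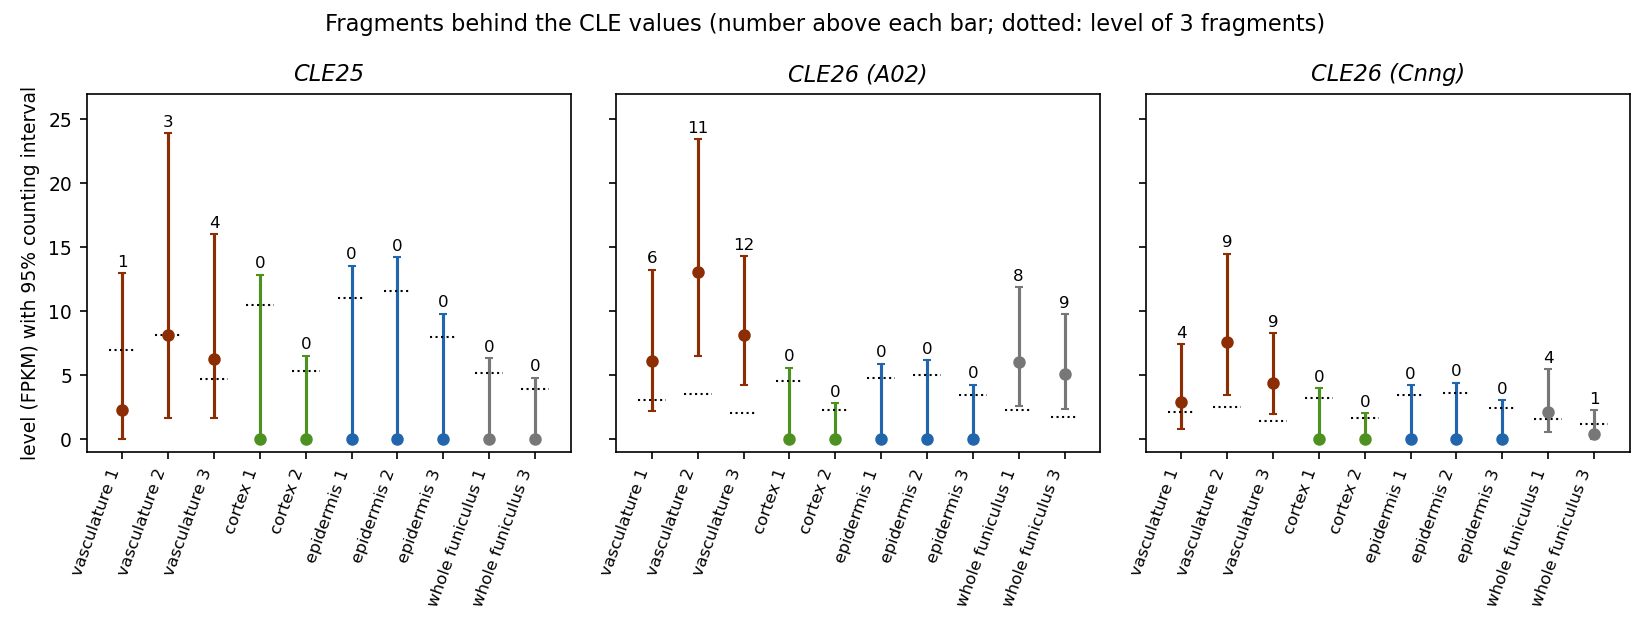
Level in FPKM of *CLE25* and both *CLE26* transcripts in each library of vasculature, cortex, epidermis and whole funiculus 1 and 3, with exact 95% Poisson intervals (counting error only); the number is the fragments behind the value and the dotted line the level that 3 fragments would give. The *CLE25* values rest on 1, 3 and 4 fragments, and their intervals overlap those of the outer tissues. So do all vasculature intervals of *CLE26* BnaCnng22520D, and those of BnaA02g14720D in vasculature 1 and 3.

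*PP2-A1* was by far the most abundant of the 5. It was at 419, 546 and 415 FPKM in vasculature 1, 2 and 3, on 829, 921 and 1223 fragments. The cortex had 15.1 and 21.2 FPKM, on 20 and 55 fragments, and the epidermis 3.99, 2.51 and 0.578 FPKM, on 5, 3 and 1. By listed level the lectin transcript thus formed separate steps for the 3 tissues, with no library of one tissue reaching the next. The counting intervals of cortex 1 (9.25 to 23.4 FPKM) and epidermis 1 (1.30 to 9.32 FPKM) still touched. Its vasculature mean of 460.1 ± 74.2 FPKM (SD, n = 3) ranked 70 among the 38227 transcripts and was 25.3 times the cortex mean of 18.2 ± 4.26 FPKM (SD, n = 2). It was 195 times the epidermis mean of 2.36 ± 1.71 FPKM (SD, n = 3).

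In log2(FPKM + 1) *PP2-A1* exceeded the epidermis by 7.24 ± 0.42 (limma adjusted p = 2.56e-05) and the cortex by 4.60 ± 0.47 (limma adjusted p = 0.000748). The cortex exceeded the epidermis by 2.65 ± 0.47, which missed the threshold (limma adjusted p = 0.0697, unadjusted 0.000377) and missed it under each of 14 other settings (adjusted p of 0.0511 to 0.240). By level its order was vasculature, whole funiculus (281 and 242 FPKM in libraries 1 and 3), cortex, epidermis. Vasculature and whole funiculus, neighbours in this order, differed by 0.80 ± 0.45 and did not pass (limma adjusted p = 0.507).

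**Figure D3:**
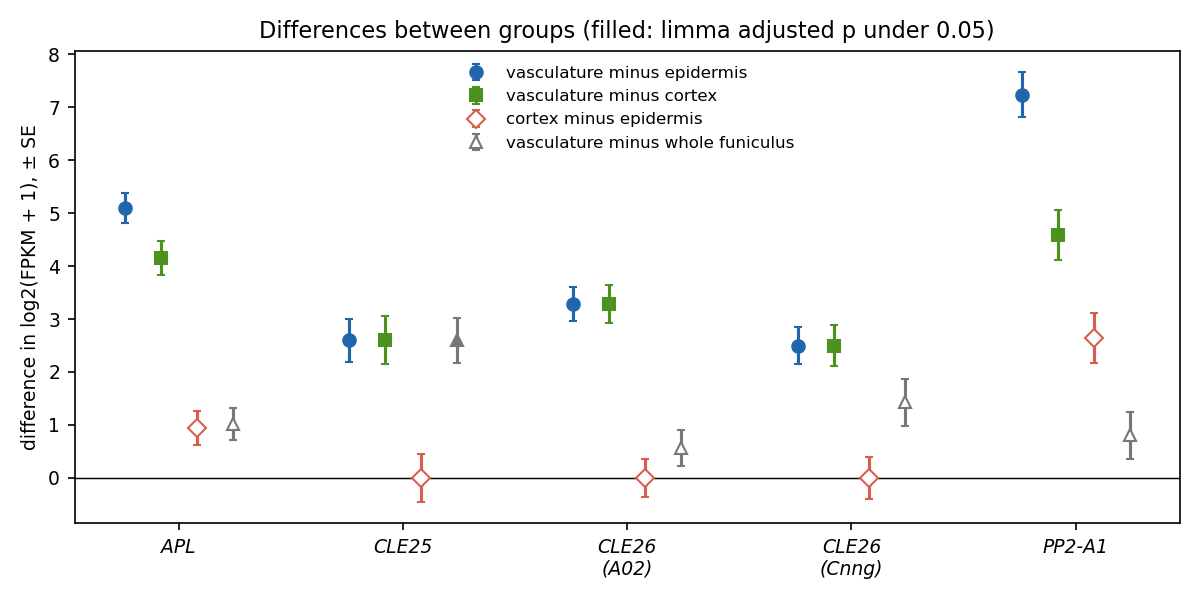
Differences in log2(FPKM + 1) with standard errors for the 5 phloem transcripts in 4 contrasts; filled symbols have a limma adjusted p under 0.05. All 5 pass against epidermis and cortex, none between cortex and epidermis, and *CLE25* alone against the whole funiculus.

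Between cortex and epidermis none of the 5 was called, where 0.106% of all tested transcripts were higher in the cortex (48 at an adjusted p in limma; 4756 differed in either direction at an unadjusted p under 0.05). *PP2-A1* and *APL* were among those at an unadjusted p under 0.05, with *APL* at 0.0173. The 3 CLE transcripts were listed at 0 in both tissues and could not differ.

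Against whole funiculus 1 and 3 fewer of the members were called. Of the 5, *CLE25* was called higher in the vasculature (2.60 ± 0.43 in log2(FPKM + 1), limma adjusted p = 0.0191), where 0.239% of all tested transcripts were. That call rests on zeros in 2 libraries in which 3 fragments are worth 5.18 and 3.93 FPKM, and it was lost without whole funiculus 1 (limma adjusted p = 0.109), without whole funiculus 3 (0.122) or without vasculature 3 (0.0861). It was also lost with a filter at 5 FPKM (limma adjusted p = 0.0983) and with whole funiculus 2 in the fit, where the difference was 1.29 (limma adjusted p = 0.488). In the whole funiculus the mean level was 56.9% of the vasculature mean for *PP2-A1*, 47.4% for *APL*, 61.2% for *CLE26* BnaA02g14720D and 25.7% for BnaCnng22520D. The last value differed between the libraries, with 43.2% from whole funiculus 1 and 8.20% from whole funiculus 3, on 4 and 1 fragments. Transcripts enriched in the vasculature had a median of 42.4% over 1952 transcripts.

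In whole funiculus 2, *APL* and both *CLE26* transcripts were listed at 0 and *PP2-A1* was at 3.05 FPKM on 2 fragments, while *CLE25* was at 14.1 FPKM, also on 2 fragments. For *APL*, 3 fragments would be 2.04 FPKM in this library, below the 13.7 and 18.5 FPKM of whole funiculus 1 and 3. For *CLE26* BnaA02g14720D they would be 9.20 FPKM, above the level of the other whole funiculus libraries, so its zero there lies within what the depth allows.

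Each of the 5 transcripts was listed highest in vasculature 2. That library was the highest of the 3 for 37.1% of all tested transcripts and for 48.3% of the 1952 enriched in the vasculature. For *APL* and *PP2-A1* its counting interval lay above those of vasculature 1 and 3. The 3 CLE transcripts rest on 1 to 12 fragments per vasculature library, and their intervals overlap between these libraries. In log2(FPKM + 1), vasculature 2 exceeded the mean of vasculature 1 and 3 by 0.39 in *PP2-A1*, the smallest step, and by 0.92 in *CLE26* BnaCnng22520D, the largest. It was the highest library for 13 of 14 phloem loading and transport transcripts and for 9 of 11 sieve element transcripts, against 6 of 14 xylem markers. Summed over each list, vasculature 1, 2 and 3 held 868, 1108 and 926 FPKM of the loading list, 93.4, 140.3 and 100.0 FPKM of the sieve element list and 172, 163 and 166 FPKM of the xylem list. Phloem lists thus stood higher in vasculature 2 while the xylem sum did not, and what differs in this library was not tested.

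**Figure D4:**
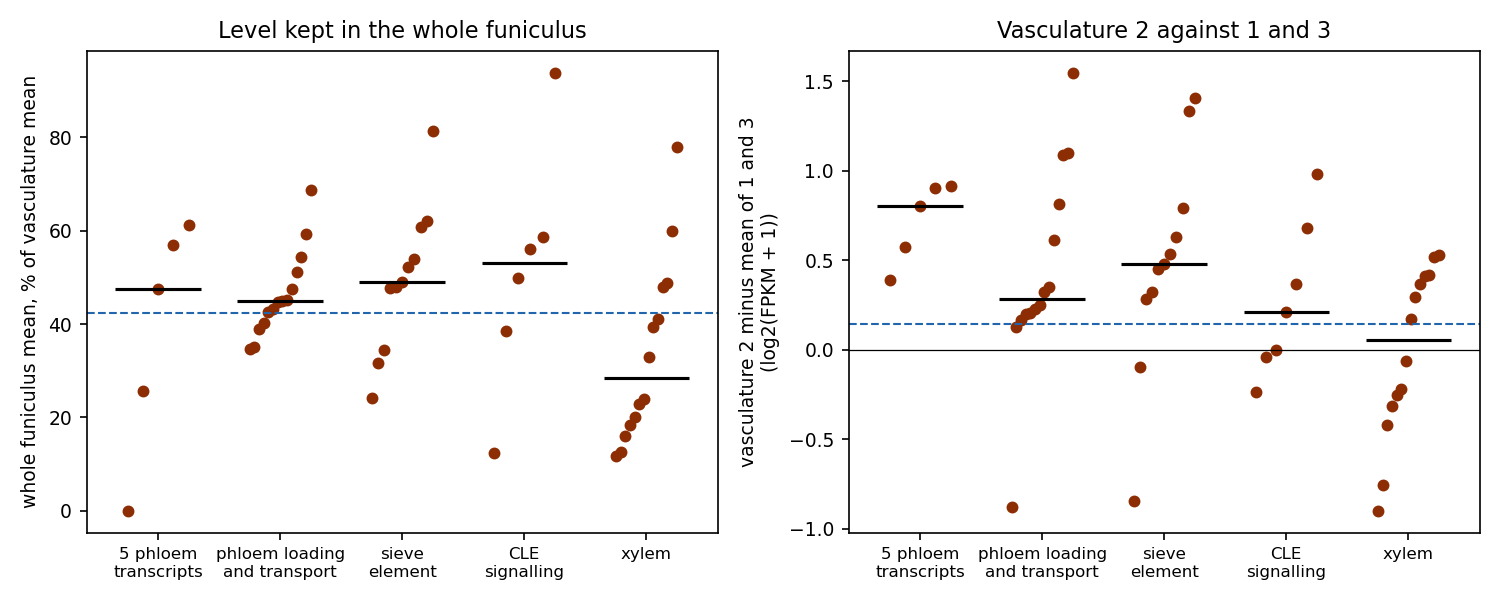
Left, whole funiculus mean (libraries 1 and 3) as percent of the vasculature mean for each transcript of 5 lists; right, vasculature 2 minus the mean of vasculature 1 and 3 in log2(FPKM + 1). Points are transcripts, black bars list medians, and the dashed line is the median of the 1952 transcripts enriched in the vasculature (42.4% and 0.14). All 5 phloem transcripts lie above 0 on the right, and the xylem median is 28.4% on the left, where *CLE17*, at 0 in the vasculature, has no point.

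Transcripts of the sieve element list, all picked by the study as vasculature transcripts, were higher in the vasculature as well. All 11 were higher against the epidermis and all 11 against the cortex, where 9.18% and 5.73% of all tested transcripts were. The median difference was 2.50 and 2.60 in log2(FPKM + 1), against 0.06 and 0.05 over all tested transcripts. *SEOA* (BnaA05g33720D), a filament protein of sieve elements, was at 19.6, 26.5 and 23.8 FPKM in vasculature 1, 2 and 3, against 0.902 and 1.99 FPKM in the cortex and listed zeros in the epidermis. Its relative *SEOB* (BnaC03g30640D) was at 13.8, 12.7 and 13.6 FPKM in the vasculature and at 0 in all outer libraries, and was the 1 transcript of this list called above the whole funiculus (1.83 ± 0.32, limma adjusted p = 0.0228). The sucrose synthase transcript *SUS5* (BnaCnng74430D) stood at 7.44, 24.1 and 9.59 FPKM and the sieve plate callose synthase transcript *CALS7* (BnaC08g44800D) at 9.09, 13.9 and 10.8 FPKM in the vasculature.

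All 14 transcripts of the loading and transport list were higher in both contrasts, beside the same 9.18% and 5.73% of all tested transcripts. Medians of this list were 5.22 against the epidermis and 3.90 against the cortex. Its most abundant transcript was *PP2-A10* (BnaC05g07510D), which like *PP2-A1* encodes a phloem protein of the lectin family, at 295, 362 and 334 FPKM in the vasculature. In the cortex it was at 22.8 and 23.2 FPKM and in the epidermis at 9.26, 6.80 and 0.670 FPKM, the same order of tissues as for *PP2-A1*. The proton pump transcript *AHA3* (BnaA02g08160D) averaged 86.0 FPKM and the sucrose carrier transcripts *SWEET13* (BnaC09g27000D) and *SUT2* (BnaC05g17970D) 81.9 and 80.5 FPKM in the vasculature. Transcripts of both lists come from the enriched list of the study, as do the xylem markers, of which 14 of 14 were higher in both contrasts, and these counts are no independent evidence of direction.

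Receptors and other ligands of the CLE pathway followed more than one pattern. Of 7 listed transcripts 5 were higher in the vasculature in both contrasts. Of all tested transcripts 9.18% were called higher against the epidermis and 5.73% against the cortex. These 5 are on the vasculature list of the study and another is on its epidermis list. The split was thus largely set by that choice. *CLV1*, the receptor kinase first known from the shoot meristem, had 2 transcripts: BnaA07g32120D was at 40.4, 47.2 and 40.9 FPKM in the vasculature, against 0.932 and 1.83 FPKM in the cortex and 0.702, 0.589 and 0.711 FPKM in the epidermis. BnaC06g36500D was at 21.1, 38.2 and 26.2 FPKM in the vasculature, against 0.420 and 4.06 FPKM in the cortex and 0.443, 1.55 and 1.07 FPKM in the epidermis. The vasculature libraries did not overlap with those of cortex and epidermis in either transcript, while cortex and epidermis overlapped in BnaC06g36500D.

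The co-receptor kinase transcripts *CIK1* (BnaA04g14020D) and *CIK2* (BnaC07g42710D) averaged 28.7 and 16.5 FPKM in the vasculature, and exceeded the epidermis by 4.28 ± 0.28 and 3.43 ± 0.38 in log2(FPKM + 1) (limma adjusted p = 3.64e-05 and 0.000394). *CLE42* (BnaC04g10360D), a ligand of the group that holds back xylem differentiation, was at 7.18, 12.6 and 4.82 FPKM in the vasculature and listed at 0 in all outer libraries. These transcripts were picked by the study from the same libraries as vasculature transcripts.

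*CLE17* (BnaA07g38900D) went the other way. It was listed at 0 in all 3 vasculature and both cortex libraries, against 17.2, 22.6 and 3.12 FPKM in epidermis 1, 2 and 3, a difference of -3.60 ± 0.59 between vasculature and epidermis (limma adjusted p = 0.00345), and is on the epidermis list of the study. *RPK2* (BnaA01g33140D), a receptor-like kinase also tied to CLE perception and the 1 transcript of this list not picked by tissue, was at 3.39, 3.34 and 3.54 FPKM in the vasculature, against 5.63 and 2.72 FPKM in the cortex and 5.74, 4.32 and 2.77 FPKM in the epidermis. Its groups overlapped, and neither contrast passed (limma adjusted p = 0.727 against the epidermis and 0.850 against the cortex).

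**Figure D5:**
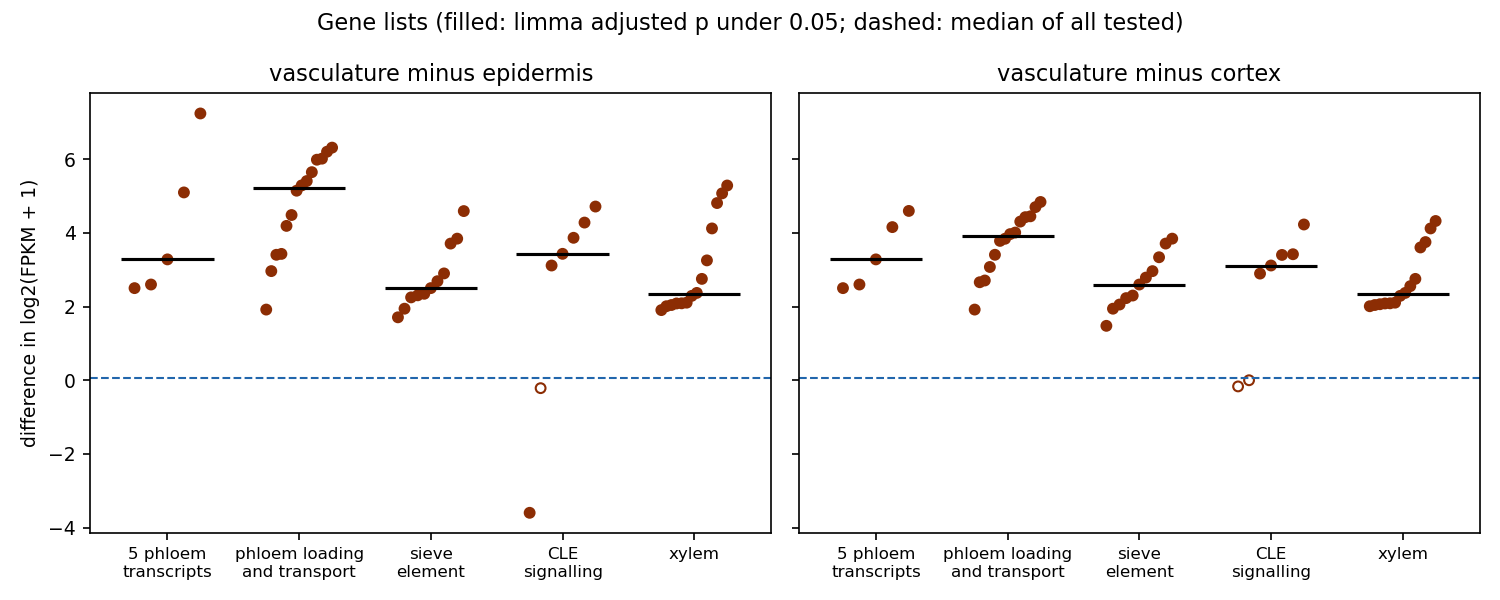
Difference in log2(FPKM + 1) between vasculature and epidermis (left) and vasculature and cortex (right) for the 5 phloem transcripts and 4 further lists; points are transcripts (filled, limma adjusted p under 0.05), black bars list medians and the dashed line the median of all 45300 tested. Both panels share the vasculature libraries. *CLE17* and *RPK2* are the transcripts of the CLE signalling list that lie at or below 0.

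The transcripts most like each member were sought by Pearson correlation of log2(FPKM + 1) over 10 libraries, among the 23347 transcripts that averaged 5 FPKM or more in some group. These values describe likeness across tissues, since libraries of one tissue share it. *APL* was closest to BnaC09g05850D, BnaC07g31220D and BnaA02g31250D (r of 0.997, 0.996 and 0.996). *PP2-A1* was closest to a trehalose-6-phosphate synthase transcript (BnaC06g39000D, r of 0.996), a TRAF-like family transcript (BnaA05g18690D, 0.993) and BnaC09g08060D (0.993). The trehalose-6-phosphate synthase transcript was at 81.1, 93.5 and 81.2 FPKM in the vasculature, against 4.89 and 7.90 FPKM in the cortex and 0.793, 0.832 and 0.287 FPKM in the epidermis, with 48.4 and 45.8 FPKM in whole funiculus 1 and 3.

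*CLE26* BnaA02g14720D was closest to transcripts that were likewise listed at 0 in all outer libraries. They are a disease resistance protein transcript of the CC-NBS-LRR class (BnaC07g24570D, r of 0.999), a proline-rich family transcript (BnaC03g05230D, 0.999) and a DUF3339 transcript (BnaAnng27000D, 0.997). *CLE26* BnaCnng22520D was closest to *MYB47* (BnaA08g22480D, 0.999), an HVA22-like transcript (BnaA04g24690D, 0.991) and BnaC05g21930D (0.983). The last was not restricted to the vasculature, at 10.85 to 12.77 FPKM in the outer libraries against 27.3, 33.0 and 29.4 FPKM in vasculature 1, 2 and 3. *MYB47* was at 5.16, 17.1 and 6.93 FPKM in the vasculature and 3.19 and 0.484 FPKM in whole funiculus 1 and 3, and listed at 0 in the cortex and epidermis.

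*CLE25* had the least close neighbours: BnaA09g10200D (r of 0.969), a zinc finger protein transcript (BnaA05g02860D, 0.952) and BnaA09g42820D (0.951). Unlike *CLE25*, BnaA09g10200D was above 0 in the outer libraries, at 2.14 to 3.22 FPKM. Among the members *APL* and *CLE26* BnaA02g14720D were the closest pair (r of 0.983), followed by *APL* and *PP2-A1* (0.976). *CLE25* and *PP2-A1* were the least close (0.664). *CLE25* is the member with zeros in whole funiculus 1 and 3, the libraries in which the other 4 were above 0. A floor of 3 fragments of *CLE25* is 5.18 and 3.93 FPKM in those libraries. All correlations of *CLE25* rest on 8 fragments in the vasculature.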

How the data were processed

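The table analysed holds FPKM values that the authors computed with Cufflinks 2.2.1 from single-end reads aligned with TopHat2 2.0.13 to the *B. napus* genome; the submitters' processing notes also name DESeq. All 11 columns were matched to a library, and the depth per library is known only in relative terms, from the step of 1 fragment. The lists and the 5 members were chosen with earlier results of these data known. The authors' deposited FPKM were not scaled again. Transcripts averaging 1 FPKM or more in some group were compared with limma 3.58.1 (lmFit, eBayes with variance trend, R 4.3.3) on log2(FPKM + 1), with Benjamini-Hochberg adjustment at 0.05: 8 tissue libraries in 1 fit (45300 transcripts), and 10 libraries with whole funiculus 1 and 3 (46004). The CuffDiff test of the study needs the reads and was not run. Depth steps and the fit were tested on simulated data. Fragments were taken as the smallest whole numbers within 0.05 fragments, with exact Poisson intervals at 95%, and a floor of 3 fragments. Python 3.11.15 with numpy 2.4.6, pandas 2.3.3, scipy 1.17.1 and matplotlib 3.10.9 was used. Named transcripts are the 5 members, up to 4 examples per list with the highest vasculature mean and any that went against its list, and the 3 transcripts most correlated with each member. List transcripts were paired with Arabidopsis genes through the tables of the study. The study calls the libraries of a group biological replicates of pooled elements. Alternatives were a pseudocount of 0.5 FPKM, no filter, a filter at 5 FPKM, a replicate block, scaling by library medians, no variance trend, whole funiculus 2 included, and each replicate left out.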

Additional observations from a re-analysis of the deposited data

Results flagged for a closer look

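*CLE25* (BnaA02g29310D) gave a signal in a library outside the main comparisons. It was at 14.1 FPKM in whole funiculus 2, against 0 in whole funiculus 1 and 3, and 2.33, 8.19 and 6.25 FPKM in the vasculature. The value rests on 2 fragments and has a 95% Poisson interval of 1.70 to 50.8 FPKM, which covers all 3 vasculature values. The same library held *PP2-A1* at 3.05 FPKM, and *APL* and both *CLE26* transcripts were listed at 0 in it. Why this library differs was not tested.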

How the results depend on the processing

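The members' log2 differences kept their direction in each contrast that had one, and their side of the threshold in 242 of 250 combinations of member, contrast and setting; the other 8 all concern *CLE25*. A further 41 combinations, the CLE transcripts between cortex and epidermis, held no call to lose, as both tissues were listed at 0. Only the replicate block moved these differences off 0, the furthest to 0.0653 in *CLE25*. Its difference from the cortex was 2.60 without cortex 1 or cortex 2, with limma adjusted p of 0.0550 and 0.0543. Its difference from the whole funiculus was called in the main comparison, and the count of members called there fell to 0 with a filter at 5 FPKM (limma adjusted p = 0.0983), with the replicate block (0.0725), with whole funiculus 2 (0.488) and without vasculature 3, whole funiculus 1 or whole funiculus 3. With a filter at 5 FPKM, *CLE26* BnaCnng22520D was not tested, so that 4 members were called against epidermis and cortex. Leaving out each library in turn, 5 members were called against the epidermis, 4 to 5 against the cortex, 4 to 5 by the enrichment rule, 0 between cortex and epidermis and 0 to 1 against the whole funiculus, and 5 kept every vasculature library above every outer library.

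The counts over all transcripts moved more. Between cortex and epidermis the 48 higher transcripts became 82 with the filter at 5 FPKM, 2 with the replicate block, 23 with no variance trend and 7 to 433 with a library left out (433 without cortex 1, 158 without cortex 2), and those at an unadjusted p under 0.05 became 2985 with that filter and 4040 to 5873 with a library left out. Against the whole funiculus the 110 became 56 with a pseudocount of 0.5 FPKM, 69 with no filter, 69 with the filter at 5 FPKM, 13 with the replicate block, 2 with whole funiculus 2 and 20 to 158 with a library left out. The filter at 5 FPKM, which leaves fewer transcripts to test, gave 1283 enriched in the vasculature and 3482 with no overlap. Leaving out a library gave 2928 to 4133 higher against the epidermis, 1565 to 2526 against the cortex, 1316 to 1911 enriched and 6503 to 8759 with no overlap. The cause of the other moves was not tested.

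The replicate numbers were not taken to pair the libraries: correlations of same-numbered deviations ran from -0.0959 to 0.203 among the tissues and from -0.0982 to 0.0701 between the tissues and whole funiculus 1 and 3. The replicate block changed no other call of a member. Depth limits the CLE transcripts most, as 1 to 12 fragments lie behind each vasculature value, and the cortex has 2 libraries.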
